A study of Mus musculus with 32 samples.

Results

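Kidneys of 3 untreated diseased NZB/W F1 mice at 42 weeks were compared with kidneys of 4 untreated asymptomatic NZB/W F1 mice at 12 weeks, 7 of the 16 mice in the series. The mice were chosen by the age and disease state in their labels. NZB/W F1 mice are the offspring of an NZB by NZW cross, and all mice were females. Diseased mice had entered the study once proteinuria, the loss of protein into urine, had become fixed. RNA came from pieces of kidney that held both cortex and medulla, and each mouse was measured on a pair of Affymetrix arrays, Mu11KsubA and Mu11KsubB (A and B). Urine protein and histology are not paired with single mice in the labels. The labels and the array methods give 12 weeks for the asymptomatic mice, where the description of the experimental design gives 20 weeks. The groups differ in age as well as in disease, so age and disease cannot be told apart in this comparison. Diseased mice at 36 weeks (n = 3) and mice of 42 weeks that had been given sirolimus (n = 3) are set beside it where stated. The remaining mice of the series, sirolimus-treated mice at 36 weeks, entered the signal filter and the spread shared by all groups and are not described.

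Females of this cross make antibodies against nuclear antigens, and immune complexes lodge in the glomerulus, the filter of the nephron. Deposited antibody can be read by complement, which begins with C1q, and by Fc receptors on macrophages, and peptides on MHC class II molecules are shown to helper T cells. Downstream of the filter, the proximal tubule reclaims protein, phosphate, sugars and amino acids and runs on mitochondrial oxidation. Injured tubule cells are known to lose these transporters and to make lipocalin 2, keratins and other injury proteins.

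Values are MAS5 signals, which the authors' software sets to a common scale on each array, and signals below 50 are near the background and not exact. Probe sets were left out unless 1 or more of the 16 mice reached 50. A gene was called higher or lower at an adjusted p under 0.05 from limma and a fold change over 1.5. Of 7989 probe sets tested, 1643 (20.6%) were called, 853 (10.7%) higher and 790 (9.89%) lower. Of the 1643, 1527 had values that did not overlap between the 3 and the 4 mice, as had 33.7% of all probe sets tested. The largest rises and falls were named only from genes without overlap, so their separation between the groups was set by the choice. Counted once per gene, 385 of 4190 genes (9.19%) were called higher and 418 (9.98%) lower, with a median log2 fold change of 0.03. The median probe set was 0.15 (A) and 0.18 (B) log2 units higher in the diseased than in the asymptomatic mice, and with each array centred on its median the split was 640 higher and 1217 lower. The label of each array ends in a number that the labels do not explain. Those of the asymptomatic arrays lie apart from those of the other arrays. Whether they mark batches is not known, and if they do, group and batch cannot be told apart. Diseased mouse 1 had an actin 5'/3' ratio, a sign of RNA quality, of 0.481 (A) and 0.483 (B), against 0.669 to 0.847 in the other 6 mice. Its part in the results was not tested. Without this mouse 1362 probe sets were called.

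Genes of antigen presentation by MHC class II were higher in the diseased kidneys, with 8 of 10 tested genes called higher, none lower and a median log2 fold change of 1.36. Of the class I and antigen processing genes, 10 of 15 were called higher and 1 lower, with a median of 0.87. Most class II genes are switched on through conserved promoter elements called the X box and the Y box, and class I genes carry a site for NF-kB. The 200 bases before the first listed start of 3 class II and 2 class I genes that were called higher are shown to let these elements be seen in genes that moved together. They are RefSeq sequence of the C57BL/6J reference (GRCm38.p6), not of NZB or NZW mice, written 5' to 3' on the strand of the gene. Capitals mark the X box core AACNGATG and the Y box ATTGG (on either strand) in the class II genes and the NF-kB motif GGGANTNCC in the class I genes. The windows lie at chr17:34305667-34305866 (H2-Eb1, plus strand), chr17:34152991-34153190 (H2-DMb1, plus strand), chr17:34287824-34288023 (H2-Aa, minus strand), chr17:34000348-34000547 (H2-K1, minus strand) and chr17:35262894-35263093 (H2-D1, plus strand).
H2-Eb1: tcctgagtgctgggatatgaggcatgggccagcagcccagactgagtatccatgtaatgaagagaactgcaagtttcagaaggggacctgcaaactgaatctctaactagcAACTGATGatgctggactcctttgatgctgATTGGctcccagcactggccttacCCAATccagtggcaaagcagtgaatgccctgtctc
H2-DMb1: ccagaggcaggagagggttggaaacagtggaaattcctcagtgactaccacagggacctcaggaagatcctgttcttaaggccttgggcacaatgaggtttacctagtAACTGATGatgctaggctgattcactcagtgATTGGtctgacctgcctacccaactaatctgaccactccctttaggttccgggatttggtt
H2-Aa: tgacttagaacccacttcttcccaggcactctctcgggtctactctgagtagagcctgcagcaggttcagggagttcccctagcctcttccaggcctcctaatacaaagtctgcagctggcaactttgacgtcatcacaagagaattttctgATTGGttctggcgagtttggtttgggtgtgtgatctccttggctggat
H2-K1: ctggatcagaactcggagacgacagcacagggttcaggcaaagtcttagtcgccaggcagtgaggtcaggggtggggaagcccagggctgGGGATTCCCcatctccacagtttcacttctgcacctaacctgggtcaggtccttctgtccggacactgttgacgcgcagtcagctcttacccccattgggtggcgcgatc
H2-D1: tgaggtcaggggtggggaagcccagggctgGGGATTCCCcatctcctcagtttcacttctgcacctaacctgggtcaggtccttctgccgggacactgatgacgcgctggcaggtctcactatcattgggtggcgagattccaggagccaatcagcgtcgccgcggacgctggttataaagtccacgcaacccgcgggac

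In H2-Eb1 and H2-DMb1 the X box core stands at -89 and -92 from the start, followed by a Y box at -59 and -61. H2-Aa has a Y box at -48 and no match to these X box letters in the window. Shares were counted on both strands in a longer window, 250 bases before to 50 after the start. In it the X box core was present in 3 of the 7 class II genes of the list with a promoter in the table (42.9%, the third being Ctss at -207, outside the 200 bases), in 0 of 14 class I genes and in 2.33% of 27025 promoters. The Y box was present in 5 of these 7 (71.4%), in 10 of 14 class I genes (71.4%) and in 37.9% of all promoters. H2-K1 and H2-D1 have the NF-kB motif at -110 and -170. They are the only 2 of the 14 class I genes with it (14.3%), against 1 of 7 class II genes (14.3%), which is H2-Aa at -131 (left in lower case), and 3.95% of all promoters. These matches are letters in a reference window, and binding was not measured.

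Among the class II genes, Cd74, the invariant chain that escorts class II molecules, had signals of 601, 634, 574 and 628 in the 4 asymptomatic mice and 1946, 2409 and 3048 in diseased mice 1, 2 and 3 (log2 fold change 1.99 ± 0.17, adjusted p = 5.77e-05). H2-Aa, an alpha chain, had 367, 362, 324 and 313 against 669, 984 and 1299 (log2 fold change 1.48 ± 0.22, adjusted p = 0.000756). H2-Eb1, a beta chain, had 312, 323, 332 and 332 against 470.1, 964 and 998 (log2 fold change 1.24 ± 0.23, adjusted p = 0.00217). In H2-Aa and H2-Eb1 the lowest diseased mouse, mouse 1, lay above the highest asymptomatic mouse. H2-DMa, which loads peptides, was called with 2.03 ± 0.29 on the log2 scale, H2-Ea with 1.48 ± 0.25 and the protease Ctss, which trims the invariant chain, with 1.92 ± 0.36. The members not called were H2-Oa (-0.14) and H2-Ob (1.17), the chains of a protein that holds back peptide loading, both with asymptomatic signals below 50. Without each diseased mouse in turn, 8 of the 10 genes were called.

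H2-K1, a class I heavy chain, had signals of 377, 419, 351 and 332 in the asymptomatic and 1499, 1296 and 2110.2 in the diseased mice (log2 fold change 2.12 ± 0.18, adjusted p = 5.77e-05). H2-D1, another heavy chain, had 663, 638, 802 and 711 against 1629, 1502 and 1965 (log2 fold change 1.27 ± 0.16, adjusted p = 0.000436). Unlike the class II genes, these 2 genes were about as high in mouse 1 as in mouse 2. Class I genes are near-identical in sequence, so the probe sets of H2-K1 and H2-D1 may read more than 1 of them. The peptide transporter Tap1 had 15.01, 15.7, 19.5 and 14.7 against 28.3, 55.2 and 97.3 (log2 fold change 1.73 ± 0.53, adjusted p = 0.0317), and the immunoproteasome subunits Psmb8 and Psmb10 were called with 1.53 ± 0.31 and 1.62 ± 0.42. The 1 gene called lower was Canx, calnexin, a chaperone of the endoplasmic reticulum, with 669.6, 755, 533 and 617 against 341, 91.2 and 338 (log2 fold change -1.54 ± 0.36, adjusted p = 0.00805). Of its other probe sets, 1 was called lower at -0.87 and 1 was not called at -0.33. With each array centred on its median 6, and without mouse 3, 5 of the 15 genes were called higher.

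The 3 chains of C1q, the first component of the classical pathway of complement, rose together. C1qa had signals of 68.2, 75.2, 69.1 and 76.1 in the asymptomatic and 191, 601 and 754 in the diseased mice (log2 fold change 2.62 ± 0.57, adjusted p = 0.00544). C1qb had 79.3, 91.1, 108 and 109 against 229, 464 and 595 (log2 fold change 2.05 ± 0.32, adjusted p = 0.00095), and C1qc 96.2, 109, 82.7 and 104 against 215, 409 and 630.4 (log2 fold change 1.97 ± 0.30, adjusted p = 0.000786). Mouse 1 was the lowest of the 3 diseased mice in each chain. Cfp, properdin of the alternative pathway, was also called (1.22), which makes 4 of 7 early components. C2, C1ra and Cfb were not called, with log2 fold changes of 0.51, 0.16 and -0.35. C3, the component on which the pathways meet, is named here only through the study's own gene list and was looked at after its values were seen. It had 214, 129.8, 102 and 203 in the asymptomatic and 2167, 602 and 2072 in the diseased mice (log2 fold change 3.17 ± 0.42, adjusted p = 0.000456), highest in mice 1 and 3, so its order among the mice was not that of C1q. Of 7 regulators and receptors only Itgb2, a chain of complement receptor 3, was called (1.79).

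Macrophage markers were called higher for 6 of 14 genes, none lower, with a median of 1.20. Lyz2, lysozyme, had signals of 209, 186, 261 and 193 in the asymptomatic and 434, 805 and 1119 in the diseased mice (log2 fold change 1.80 ± 0.34, adjusted p = 0.00249). Cd68, a protein of macrophage lysosomes, had 49.2, 46.5, 52.4 and 47.6 against 116, 162 and 142 (log2 fold change 1.51 ± 0.20, adjusted p = 0.000494), and Cd14, a receptor for bacterial lipopolysaccharide, 245, 231, 267 and 232 against 808, 547 and 821 (log2 fold change 1.55 ± 0.25, adjusted p = 0.00107). Lyz2 was highest in mice 2 and 3, whereas Cd14 was as high in mouse 1 as in mouse 3. Ms4a6b, Ctss and Lgals3 were the other genes called, and the Lgals3 values overlapped between the groups. Markers that were not called differed between the diseased mice. Adgre1, which encodes the F4/80 antigen, had 10.8, 58.3 and 52.1 in mice 1, 2 and 3 against 5.68 to 16.8 in the asymptomatic mice, Mpeg1 31.9, 186 and 214 against 39.3 to 52.1, and Csf1r, the receptor for the growth factor of macrophages, 59.2, 171 and 156 against 109 to 146. In all 3 genes mouse 1 lay within or below the asymptomatic range and mice 2 and 3 above it. In whole tissue, a change in the number of cells of a type and a change in RNA per cell cannot be told apart.

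Fc receptors and the proteins that signal from them were called for 6 of 12 genes, none lower, with a median of 0.99. Fcer1g, the signalling chain shared by activating Fc receptors, had 107, 122, 110.4 and 109 in the asymptomatic and 209.6, 530.0 and 630.3 in the diseased mice (log2 fold change 1.88 ± 0.33, adjusted p = 0.00176). Fcgr3, a receptor for IgG in immune complexes, had 61.5, 61.9, 54.03 and 51.1 against 134, 191 and 259 (log2 fold change 1.72 ± 0.50, adjusted p = 0.0228). Lat2, an adaptor of these receptors, was called with 1.84 ± 0.28, the phosphatases Inpp5d and Ptpn6, which dampen their signals, with 1.15 ± 0.37 and 0.80 ± 0.22, and Pigr, which carries IgA across epithelium, with 0.92 ± 0.26. Fcgrt, which protects IgG from breakdown, was not called (-0.29). Without mouse 3, 3 of the 12 were called.

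B and plasma cell markers were called for 6 of 9 genes, none lower. Jchain, the joining chain of secreted IgM and IgA, had 84.3, 53.3, 72.6 and 34.8 in the asymptomatic and 203, 557 and 488 in the diseased mice (log2 fold change 2.71 ± 0.57, adjusted p = 0.00435). Cd72, a B cell surface protein, had 20.4, 12.5, 11.1 and 12.8 against 26.3, 174 and 131 (log2 fold change 2.61 ± 0.62, adjusted p = 0.00874), and Pou2af1, a coactivator of immunoglobulin genes, 1.24, 2.51, 1.94 and 1.802 against 13.3, 47.6 and 63.1 (log2 fold change 4.23 ± 0.65, adjusted p = 0.000871). All asymptomatic signals of Cd72 and Pou2af1 were below 50, so their fold changes are not exact. Mouse 1 was lowest of the diseased mice in all 6 genes called. Ms4a1, which encodes CD20, and Pax5, both of B cells before they become plasma cells, were not called (0.20 and 0.00). Of 25 immunoglobulin probe sets on the arrays 18 were tested, and 16 of these were called higher and 0 lower. Over all probe sets tested, 10.7% were called higher. Several of the 16 were below 50 in every asymptomatic mouse and passed the signal minimum only through older mice. For these the rise was partly set by the filter, so the count is given as a description. A probe set for Ighm, the heavy chain of IgM, had 138, 220.4, 115 and 128 against 777, 1697 and 1996 (log2 fold change 3.25 ± 0.54, adjusted p = 0.00133), and one for Igha, the heavy chain of IgA, 345, 169, 213 and 139.5 against 759.8, 649 and 1015 (log2 fold change 1.96 ± 0.41, adjusted p = 0.00447). The Ighm values separate mouse 1 from mice 2 and 3, and the Igha values do not. Immunoglobulin probe sets can read related genes, so single members are uncertain. Among the tested probe sets that the annotation does not name, 364 have identifiers that begin with ET6, and 238 of them were called higher and 9 lower. Whether these read immunoglobulin genes could not be settled here, so the 18 may not be all, and the 238 are part of the 853 higher calls. No T cell marker was called of 4 tested, with Cd3e at 0.51 and Thy1 at 1.24, and 3 of these 4 had means below 50 in both groups.

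Ccl9 and Cxcl1, the largest rises among the chemokines called, started from signals near the background. Ccl9, a chemokine for myeloid cells, had 2.26, 2.44, 1.36 and 5.02 in the asymptomatic and 28.9, 46.8 and 96.1 in the diseased mice (log2 fold change 4.36 ± 0.63, adjusted p = 0.000658). Cxcl1, which draws neutrophils, had 0.848, 1.81, 0.929 and 1.11 against 47.8, 5.06 and 34.6 (log2 fold change 4.18 ± 0.98, adjusted p = 0.00777) and stayed below 50 in every mouse, so its fold change is not exact. Ccl9 was lowest in mouse 1 and Cxcl1 was lowest in mouse 2. Ccl2, which draws monocytes, and its receptor Ccr2 were called with 2.80 ± 0.74 and 0.69 ± 0.22. In all, 2 of 7 CC chemokines and 1 of 6 chemokine receptors were called higher. Of 4 CXC and other chemokines 1 was called higher and 1 lower. With signals under 50 raised to 50, 0 CC chemokines and 0 receptors were called. With each array centred on its median 0 receptors were called. Cxcl12, which keeps cells in their niche and is made by stroma and podocytes, was called lower, with 217, 207, 220.4 and 188 against 42.1, 154 and 69.02 (log2 fold change -1.44 ± 0.34, adjusted p = 0.00798). Of 23 cytokines and their receptors 5 were called, all higher: the antagonist Il1rn (2.99), Tnf (1.20), Il4ra (0.78), Ifngr1 (0.71) and Ltbr (0.68). Il1rn and Tnf had means below 50 in both groups. Without mouse 3, 3 of the 23 were called, and with each array centred on its median 2.

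JAK-STAT signalling genes were called for 6 of 17, none lower. Stat3, the transcription factor of IL-6 type cytokines, had 325, 262, 226 and 215 in the asymptomatic and 669, 544 and 586 in the diseased mice (log2 fold change 1.24 ± 0.19, adjusted p = 0.000948). Its target and inhibitor Socs3 had 9.26, 12.7, 15.1 and 10.97 against 113, 88.3 and 163 (log2 fold change 3.32 ± 0.50, adjusted p = 0.000804). The kinase Jak3 was called with 1.22 ± 0.23, the phosphatase Ptpn1 with 1.46 ± 0.16, Bcl3 with 1.02 ± 0.25 and Ptpn6 as above. In Stat3 and Ptpn1 all 3 diseased mice were close together and clear of the asymptomatic range. Interferon-stimulated genes were called for 5 of 22, none lower, with a median of 0.70. Ly6e had 738, 753, 699.7 and 1030.5 against 4392, 1495 and 4111 (log2 fold change 1.91 ± 0.33, adjusted p = 0.00171), and Irf7, a factor that amplifies the interferon response, 50.3, 44.7, 44.9 and 53.99 against 66.8, 121 and 233 (log2 fold change 1.35 ± 0.36, adjusted p = 0.0148). Irf7 was lowest in mouse 1 and Ly6e was lowest in mouse 2. Ifi27, Irf1 and Psmb9 were the other genes called, whereas Isg15 (0.28), Ifit1 (0.73), Ifit3 (0.43) and Rsad2 (-0.01), which respond to type I interferon, were not. Without mouse 3, 2 of the 22 were called. Of 13 leukocyte adhesion genes 4 were called higher, with a median of 0.19, and 1 was called without mouse 3 or by the analysis of variance. Vcam1, which binds leukocytes on activated endothelium and on injured tubules, had 72.1, 89.3, 55.4 and 45.4 against 186, 185 and 477 (log2 fold change 2.00 ± 0.35, adjusted p = 0.00171), with mouse 3 the highest.

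**Figure D1:**
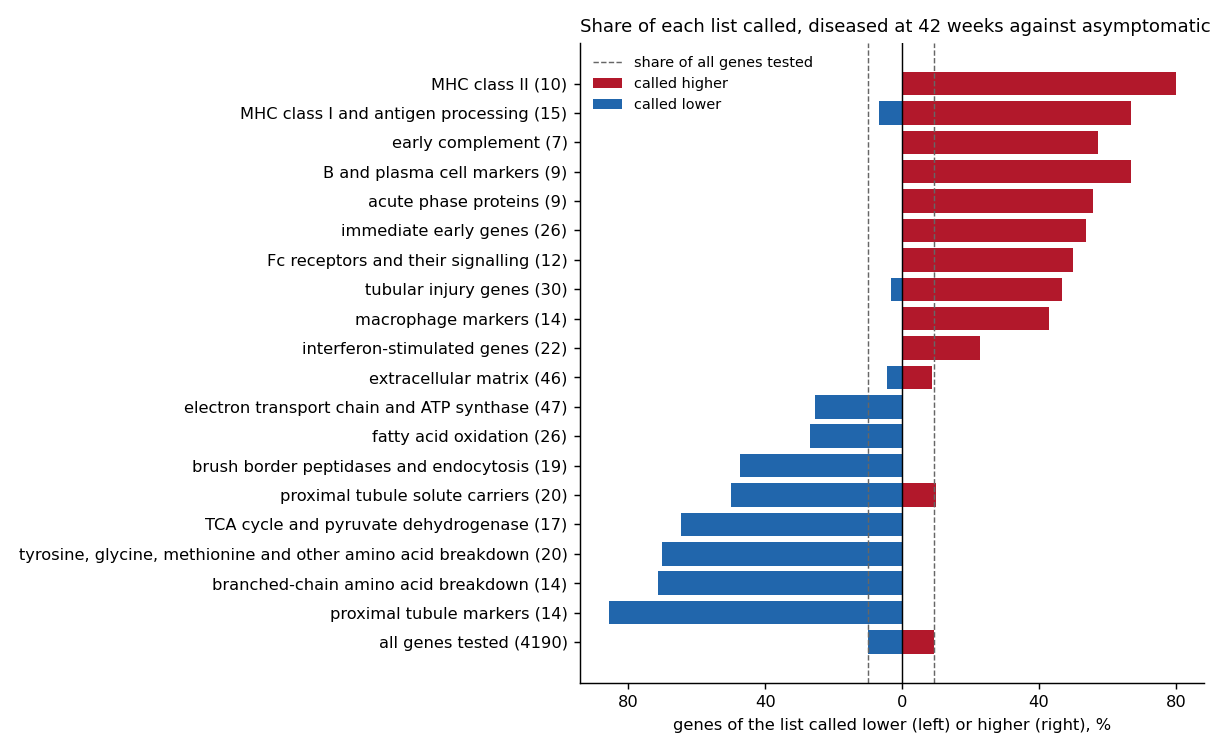
Bars give the percent of the tested genes of each list (number in brackets) called higher (right, red) or lower (left, blue) in 42-week diseased (n = 3) than in asymptomatic kidneys (n = 4), and the dashed lines give the shares over all 4190 genes (9.19% and 9.98%). The longest bars are those of MHC class II, with 8 of 10 genes called higher, and of the proximal tubule markers, with 12 of 14 called lower.

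Genes of tubular injury were called higher for 14 of 30 and lower for 1, with a median of 0.99. Lcn2, lipocalin 2, had 22.4, 30.7, 24.5 and 25.7 in the asymptomatic and 1949.5, 137 and 1237 in the diseased mice (log2 fold change 4.75 ± 0.69, adjusted p = 0.000683). Krt20, a keratin of injured tubules, had 35.1, 37.1, 42.4 and 39.7 against 286, 139 and 220.4 (log2 fold change 2.42 ± 0.38, adjusted p = 0.00095), and S100a6, a calcium-binding protein, 205, 197, 237 and 252 against 1107, 465 and 1061 (log2 fold change 1.88 ± 0.33, adjusted p = 0.00166). Mouse 2 was the lowest of the diseased mice in all 3 genes. It lay above every asymptomatic mouse, which for Lcn2 and Krt20 was a condition of naming them. Krt19 (2.74), Vcam1 and the matricellular gene Ccn1 (1.71) were the other leading rises, and in Krt19 mouse 2 fell within the asymptomatic range. Clu, clusterin, a chaperone shed by injured tubules, had 1060.0, 1153, 1279.8 and 1311 against 5154, 1110.1 and 4167 and was not called (log2 fold change 1.27 ± 0.44, adjusted p = 0.0532). In Clu mouse 2 lay within the asymptomatic range while mice 1 and 3 were far above it. Igfbp1, a binding protein of insulin-like growth factors, was the 1 gene of the list called lower (-1.05). Without mouse 2, 18 of the 30 genes were called higher, and without mouse 3, 10.

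Acute phase genes followed the same order of mice. Cp, ceruloplasmin, had 167, 177, 189 and 136 in the asymptomatic and 2066, 327 and 1519 in the diseased mice (log2 fold change 2.60 ± 0.52, adjusted p = 0.00339). Mt2, a metallothionein that binds zinc and copper, had 170.3, 274, 261 and 315 against 3572, 384 and 1727 (log2 fold change 2.42 ± 0.58, adjusted p = 0.00847), and Fgg, the gamma chain of fibrinogen, 31.8, 28.3, 20.5 and 37.5 against 191, 93.7 and 201 (log2 fold change 2.41 ± 0.30, adjusted p = 0.000416). In these genes mouse 2 was the lowest of the diseased mice. Serpina3n (2.57) and Lcn2 complete the 5 of 9 genes called, whereas Mt1, Hp, Lbp and Crp were not (1.34, 0.83, 0.61 and 0.16). Without mouse 2, 8 of the 9 were called. Lrg1, a secreted glycoprotein of the same kind that is on none of the lists, was among the 12 largest rises, with 49.4, 44.01, 73.7 and 44.04 against 378, 122 and 500.0 (log2 fold change 2.46 ± 0.38, adjusted p = 0.000881).

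Immediate early and stress genes were called higher for 14 of 26, none lower. The transcription factor Atf3 had 9.93, 6.04, 3.42 and 5.43 in the asymptomatic and 93.03, 48.2 and 89.6 in the diseased mice (log2 fold change 3.68 ± 0.52, adjusted p = 0.000572), and Junb 22.1, 20.5, 29.05 and 33.4 against 103, 70.5 and 89.8 (log2 fold change 1.75 ± 0.45, adjusted p = 0.0127). The groups did not overlap in either gene, and mouse 2 was the lowest diseased mouse in both. Fos (3.40), Klf4 (1.77) and Nfkbiz (1.56) were called with means below 50 in both groups. Hmox1, an enzyme that breaks down haem, was called with 1.32 ± 0.38 and Fkbp5, a target of glucocorticoids, with 1.82 ± 0.30.

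**Figure D2:**
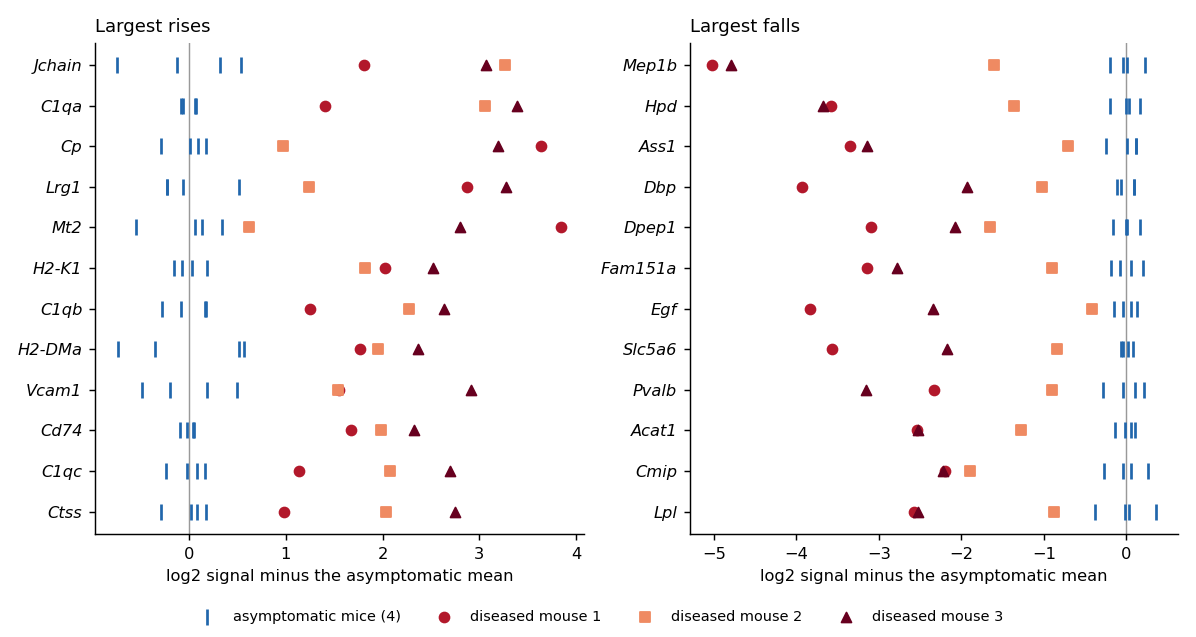
Each point is the log2 signal of a gene in 1 mouse minus the asymptomatic mean, for the 12 largest rises (left) and 12 largest falls (right) among called genes with mean signals of at least 50 in both groups and values that do not overlap. Blue ticks are the 4 asymptomatic mice and symbols the 3 diseased mice. Mouse 2 lay nearest to the asymptomatic mice in all 12 falls, and mouse 1 or mouse 2 did so in the rises.

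The proximal tubule markers were the list with the largest share of genes called, 12 of 14 lower and none higher, with a median log2 fold change of -1.39. Ass1, an enzyme of arginine synthesis, had 3415, 4395, 4059.8 and 4393 in the asymptomatic and 397, 2477 and 457 in the diseased mice (log2 fold change -2.40 ± 0.62, adjusted p = 0.0134). Fbp1, of glucose synthesis, had 2894, 3262, 3043 and 3340.5 against 539.5, 2036 and 921 (log2 fold change -1.64 ± 0.33, adjusted p = 0.00353), and Kap, an androgen-regulated protein of mouse proximal tubule, 3734, 3749, 4081 and 3405 against 711, 2407 and 1385 (log2 fold change -1.49 ± 0.33, adjusted p = 0.00622). Mouse 2 kept the highest signal of the 3 in each gene, yet in Fbp1 and Kap it was below every asymptomatic mouse. The water channel Aqp1, which carries water out of the filtrate, was called with -1.43 ± 0.27, and Hpd of tyrosine breakdown and Gatm of creatine synthesis with -2.87 ± 0.83 and -2.35 ± 0.54. The pair of markers that were not called, Cyp2e1 and Cyp4b1, had log2 fold changes of -0.00 and 0.01. Without mouse 1 and without mouse 3, 9 of the 14 were called, and an analysis of variance of the same mice called 3.

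Falls in the brush border, the folded surface of the proximal tubule, were largest for peptidases. Mep1b, a subunit of the metalloprotease meprin, had 1316, 1095, 978 and 1135 in the asymptomatic and 34.6, 370.2 and 40.7 in the diseased mice (log2 fold change -3.81 ± 0.66, adjusted p = 0.0016), the largest fall among the genes that the annotation names and whose means were both at least 50. Dpep1, a dipeptidase, had 273, 307, 304 and 342 against 35.6, 96.8 and 72.4 (log2 fold change -2.28 ± 0.26, adjusted p = 0.000254). Cubn, cubilin, which takes up filtered albumin, had 1180.2, 1044, 1088 and 997 against 275, 734 and 372 (log2 fold change -1.35 ± 0.25, adjusted p = 0.00235). Mouse 2 was the least changed of the diseased mice in each gene, and no diseased value of Cubn reached an asymptomatic one. Pdzk1, a scaffold of transporters, and the peptidases Mep1a and Mme were called with -1.35 ± 0.27, -1.26 ± 0.30 and -1.16 ± 0.20. In all, 9 of 19 genes of the list were called lower and none higher.

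Of 20 solute carriers 10 were called lower. Slc34a1, the main sodium phosphate carrier, had 3674, 3474, 3849 and 2929 in the asymptomatic and 950.4, 2624 and 1285 in the diseased mice (log2 fold change -1.23 ± 0.29, adjusted p = 0.00829). Slc17a1, a carrier of organic anions, had 991, 955, 895 and 766 against 303, 462 and 329 (log2 fold change -1.32 ± 0.20, adjusted p = 0.000738), and Slc2a2, the glucose carrier of the basal side, 872, 964, 975 and 754 against 454, 514 and 400.4 (log2 fold change -0.97 ± 0.14, adjusted p = 0.000736). For Slc2a2 the 3 diseased mice were close together, unlike Slc34a1, where mouse 2 was far above mice 1 and 3. Slc5a6, the carrier of biotin and pantothenate, was among the 12 largest falls, with 629.9, 685, 622 and 661 against 54.5, 363 and 144 (log2 fold change -2.20 ± 0.44, adjusted p = 0.00344). Slc51a (-1.40) and Slc22a18 (-1.36) were also called lower. The 2 carriers called higher were both of phosphate: Slc34a2, which is better known from lung and gut, with 21.96, 19.2, 14.5 and 13.97 against 108, 30.7 and 132 (log2 fold change 2.15 ± 0.45, adjusted p = 0.00401), and Slc20a1, with 81.8, 82.4, 89.4 and 75.2 against 139.8, 145 and 119 (log2 fold change 0.71 ± 0.19, adjusted p = 0.0149).

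Genes of phosphate and vitamin D control were called in both directions, 6 lower and 3 higher of 13. Kl, klotho, the coreceptor for the phosphate hormone FGF23, had 1586, 1529, 1473 and 1198 in the asymptomatic and 247, 993 and 281 in the diseased mice (log2 fold change -1.81 ± 0.38, adjusted p = 0.00448). Vdr, the vitamin D receptor, had 58.2, 64.6, 70.2 and 84.1 against 6.05, 34.7 and 36.7 (log2 fold change -1.80 ± 0.61, adjusted p = 0.0483). Calb1, a calcium-binding protein that vitamin D induces, had 498, 569, 567 and 606 against 287, 287 and 85.7 (log2 fold change -1.54 ± 0.33, adjusted p = 0.00505), and here mouse 3 and not mouse 1 was the lowest. Fgf1 and Slc34a1 were also lower. The 3 called higher were Fgfr1, a receptor that pairs with klotho (0.77), Cyp24a1, which breaks down vitamin D (0.72), and Slc20a1.

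Segments beyond the proximal tubule were called in part. Of 12 markers of the loop of Henle and the distal tubule, 6 were called lower and 1 higher. Egf, epidermal growth factor made by these segments, had 3461, 3294, 3070.3 and 2844 in the asymptomatic and 222, 2367 and 620.3 in the diseased mice (log2 fold change -2.20 ± 0.56, adjusted p = 0.0125). Pvalb, parvalbumin of the distal convoluted tubule, had 519.6, 616, 680.4 and 731 against 125, 337 and 70.9 (log2 fold change -2.13 ± 0.51, adjusted p = 0.00861), and Slc12a3, the thiazide-sensitive sodium chloride carrier, 1111, 1051, 956 and 1323 against 356, 838 and 460.5 (log2 fold change -1.10 ± 0.26, adjusted p = 0.00861). All 3 fell least in mouse 2. Umod, uromodulin, the most abundant protein of urine, had 261, 262, 248.8 and 301 against 211, 321 and 242 and was not called (-0.08), nor was Slc12a1, the loop carrier blocked by furosemide (-0.40). In the collecting duct, the water channel Aqp4 had 321, 269, 289 and 296 against 13.8, 118 and 19.2 (log2 fold change -3.22 ± 0.55, adjusted p = 0.00145) and the carbonic anhydrase Car2 -0.71 ± 0.14, while the keratin Krt7 was called higher (1.00). By the analysis of variance 0 of the 12 loop and distal markers were called.

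Mitochondrial and amino acid metabolism was lower across several lists, and no gene of the 5 lists that follow was called higher. Of branched-chain amino acid enzymes, 10 of 14 were called lower, of enzymes for tyrosine, glycine, methionine and other amino acids 14 of 20, and of the TCA cycle and pyruvate dehydrogenase 11 of 17. Fatty acid oxidation had 7 of 26 and the electron transport chain with ATP synthase 12 of 47. The medians were -1.12, -0.99, -0.64, -0.42 and -0.35 in that order. Acat1, which ends isoleucine breakdown, had 763, 900.5, 828 and 870.0 in the asymptomatic and 145, 347 and 146 in the diseased mice (log2 fold change -2.11 ± 0.31, adjusted p = 0.000671). Pdha1, a subunit of pyruvate dehydrogenase, had 654, 649.5, 602 and 748 against 207, 327 and 276 (log2 fold change -1.32 ± 0.18, adjusted p = 0.000548), and Acadm, which opens the oxidation of medium-chain fatty acids, 2564, 2568, 2461 and 2191 against 670.0, 1619 and 733 (log2 fold change -1.40 ± 0.28, adjusted p = 0.00332). These 3 genes kept the order of the proximal tubule markers, with mouse 2 the least changed. Atp5a1, the alpha subunit of ATP synthase, had 4015, 3623, 3565 and 3122 against 2239, 2268 and 1565 (log2 fold change -0.84 ± 0.17, adjusted p = 0.00345), with mouse 3 the lowest and mice 1 and 2 alike.

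Some of these counts moved with the mice or the scaling. Without mouse 1 and without mouse 3, 7 TCA cycle genes were called, and without mouse 3, 4 fatty acid genes. With each array centred on its median the fatty acid count was 12, and after quantile normalization it was 4 and that of the electron transport chain 5. The analysis of variance, which does not share the spread between genes, called fewer members of most lists. It called 5 of the 30 injury genes, 3 of the 14 macrophage markers and 2 of the 22 interferon-stimulated genes. Of the B cell markers it called 3 of 9, of the acute phase genes 2 of 9 and of the brush border genes 3 of 19. Of the solute carriers it called 4 of 20, of the TCA cycle genes 7 of 17 and of the branched-chain enzymes 6 of 14. It called none of the 6 phosphate and vitamin D genes lower.

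Hgd and Bhmt, enzymes of tyrosine and methionine metabolism, were called with -1.49 ± 0.25 and -2.42 ± 0.51, and Asl, which follows Ass1 in arginine synthesis, with -1.35 ± 0.21. Glul, glutamine synthetase, had 201, 93.6, 157 and 70.7 in the asymptomatic and 2.99, 7.93 and 3.81 in the diseased mice (log2 fold change -4.74 ± 0.57, adjusted p = 0.000349), so all diseased values were near the background and its fold change is not exact. In the same list of ammonia and urea cycle enzymes, Arg2, the mitochondrial arginase, had 77.8, 69.1, 68.1 and 77.6 against 287, 116 and 256 (log2 fold change 1.49 ± 0.33, adjusted p = 0.00543) and Asns, asparagine synthetase, was called higher (1.00). The superoxide dismutases Sod1 and Sod2 fell: Sod1 had 1416, 1426, 1351 and 1312 against 568, 669 and 547 (log2 fold change -1.22 ± 0.16, adjusted p = 0.000494) and Sod2 926, 913, 1043 and 888 against 424, 349 and 511 (log2 fold change -1.15 ± 0.19, adjusted p = 0.00126). For Sod1 and Sod2 the 3 diseased mice were within a narrow range, and mouse 2 was not set apart. Of the sterol synthesis genes 4 of 8 were called lower, among them Hmgcs1, with 659.7, 666, 602 and 602 against 253, 324 and 224 (log2 fold change -1.26 ± 0.20, adjusted p = 0.000996). The clock output gene Dbp had 407, 393, 452 and 453 against 27.96, 209 and 111 (log2 fold change -2.30 ± 0.48, adjusted p = 0.00417) and the clock gene Per1 rose (1.12).

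Among podocyte markers 4 of 11 were called lower and 2 higher. Wt1, the transcription factor of podocytes, had 215, 153, 176 and 121 in the asymptomatic and 69.5, 97.7 and 84.5 in the diseased mice (log2 fold change -0.97 ± 0.22, adjusted p = 0.00579). Vegfa, which podocytes and tubules make for nearby vessels, had 181, 174, 207 and 241 against 55.2, 135 and 76.9 (log2 fold change -1.26 ± 0.26, adjusted p = 0.00435). Cdkn1c, a cell cycle inhibitor of mature podocytes, had 82.05, 105, 130.4 and 85.3 against 6.69, 75.9 and 15.4 (log2 fold change -2.32 ± 0.60, adjusted p = 0.0129), and Foxc2 was called lower with overlapping values (-1.28). The 3 diseased mice were alike in Wt1 and apart in Cdkn1c, where mouse 2 was near the asymptomatic range. The 2 called higher, the intermediate filament gene Nes (1.31) and Dag1, dystroglycan (0.87), are not particular to podocytes. Synpo, a podocyte actin protein, was not called (0.23), and the analysis of variance called 0 of the 11.

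Endothelial markers were called lower for 2 of 9. Kdr, the receptor for the product of Vegfa, had 194, 215, 179 and 173 in the asymptomatic and 77.6, 125 and 64.2 in the diseased mice (log2 fold change -1.15 ± 0.23, adjusted p = 0.00317), and Ptprb, an endothelial phosphatase, 65.6, 72.5, 69.7 and 45.1 against 7.88, 30.4 and 21.01 (log2 fold change -1.86 ± 0.54, adjusted p = 0.0228). Pecam1, Cdh5 and Tie1 were not called, and in each of them mouse 2 lay at or above the asymptomatic mean while mice 1 and 3 lay below the asymptomatic range. Without mouse 2, 6 of the 9 were called. Extracellular matrix genes were called no more often than all genes, with 4 called higher and 2 lower of 46. Timp3, an inhibitor of matrix proteases, had 2186, 2410.3, 2041 and 1830.0 against 748, 1218 and 713 (log2 fold change -1.28 ± 0.19, adjusted p = 0.000827), and the fibrillar collagen Col3a1 had 266, 245, 181 and 164 against 119, 290.1 and 469, with mouse 1 below and mice 2 and 3 above the asymptomatic range and no call (0.27). Cell cycle genes were called higher for 4 of 30 (13.3%), near the 9.19% of all genes, for 6 without mouse 1 and for 1 without mouse 3. They included the kinase Cdk1, with 35.9, 22.9, 29.7 and 30.4 against 58.4, 101 and 105 (log2 fold change 1.54 ± 0.31, adjusted p = 0.00342), and the proliferation marker Mki67 (1.10). Ribosomal protein genes had 4 of 36 called higher, 1 without mouse 1 or without mouse 3, and 0 with each array centred on its median.

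**Figure D3:**
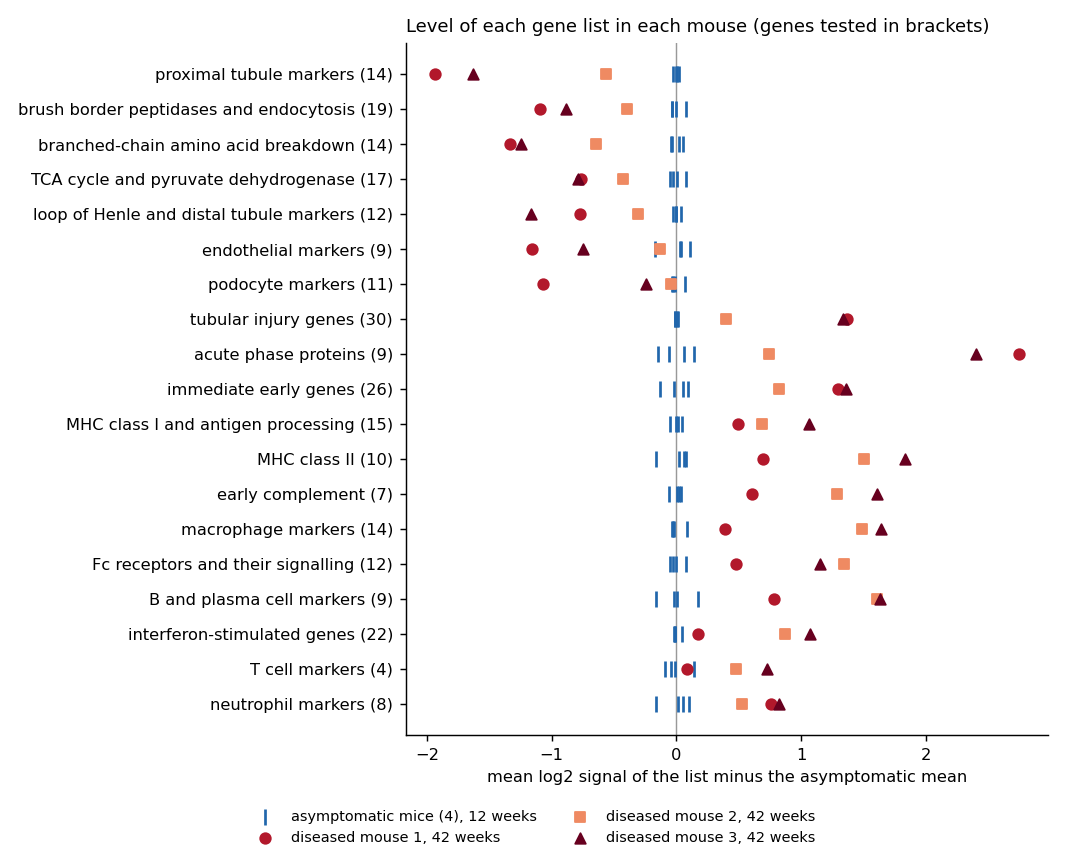
Each point is the mean log2 signal of a list in 1 mouse minus the asymptomatic mean, with the number of genes in brackets. Blue ticks are the 4 asymptomatic mice and symbols the 3 diseased mice. Mouse 2 lies nearest to the asymptomatic mice in the tubule, injury and acute phase lists, and mouse 1 in the MHC, early complement, macrophage and B cell lists.

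Set side by side, the 3 diseased mice did not carry 1 pattern to different extents, but differed in 2 groups of lists. The mean log2 signal of the proximal tubule markers, relative to the asymptomatic mean, was -1.94, -0.56 and -1.63 in mice 1, 2 and 3, against -0.03 to 0.02 over the 4 asymptomatic mice. That of the macrophage markers was 0.39, 1.49 and 1.64, against -0.04 to 0.09. Mouse 1 thus had the lowest tubule level with the lowest macrophage level, mouse 2 the highest tubule level with a high macrophage level, and mouse 3 was far from the asymptomatic mice in both. The tubular injury genes had 1.37, 0.40 and 1.34 and the acute phase genes 2.75, 0.74 and 2.40, in the order of the tubule markers turned round. The MHC class II genes had 0.70, 1.51 and 1.83, the early complement genes 0.60, 1.29 and 1.61, the B and plasma cell markers 0.78, 1.61 and 1.64 and the interferon-stimulated genes 0.17, 0.87 and 1.07, in the order of the macrophage markers. Endothelial and podocyte markers had -1.16, -0.13 and -0.75 and -1.07, -0.05 and -0.25, lowest in mouse 1. Some genes are on more than 1 list, so lists with the same order are not independent. Ctss is on the class II and macrophage lists and Lcn2 on the injury and acute phase lists. Cubn is on the proximal tubule and brush border lists. These are descriptions of 3 animals and no test was made of them. Mouse 1 is also the mouse with the low actin ratio, whose part was not tested. Without it 8 macrophage markers, 7 Fc receptor, 6 interferon-stimulated and 6 cytokine genes and 1 T cell marker were called higher, and 2 podocyte and 1 endothelial marker were called lower.

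Gene by gene, most but not all lists kept these orders. Of the 418 genes called lower, 304 (72.7%) were changed least in mouse 2, 71 (17.0%) in mouse 1 and 43 (10.3%) in mouse 3. Of the 385 called higher, 186 were changed least in mouse 2, 131 in mouse 1 and 68 in mouse 3. All 12 called proximal tubule markers and all 9 brush border genes fell least in mouse 2, and 13 of 14 called injury genes rose least there. All 4 early complement genes, all 6 B and plasma cell markers and 7 of 8 MHC class II genes rose least in mouse 1. Of the class I genes called higher, 6 of 10 rose least in mouse 2 and 3 in mouse 1. This split is near that of all 385 genes called higher, so it does not set the class I genes apart. Their mean level was 0.50, 0.69 and 1.06 in mice 1, 2 and 3, in the order of the class II genes. Rac2, a GTPase of leukocytes, had 151, 149, 165 and 152 in the asymptomatic and 149, 785 and 738 in the diseased mice and was called although mouse 1 lay at the asymptomatic level (log2 fold change 1.52 ± 0.43, adjusted p = 0.0217).

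**Figure D4:**
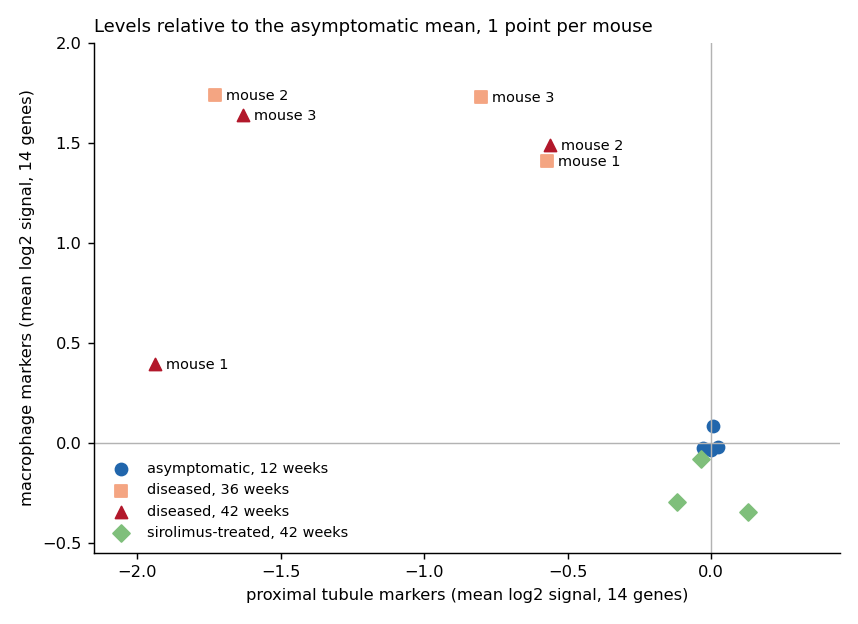
Each point is 1 mouse, with the mean log2 signal of 14 proximal tubule markers on the x axis and of 14 macrophage markers on the y axis, both relative to the asymptomatic mean. Diseased mouse 1 at 42 weeks lies at -1.94 and 0.39, apart from the other 5 diseased mice, whose macrophage levels are at least 1.41, and the 3 sirolimus-treated mice lie at or below the macrophage level of the asymptomatic mice and near their tubule level.

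At 36 weeks the 3 diseased mice also spread along the tubule list, with proximal tubule levels of -0.57, -1.73 and -0.80, but had macrophage levels of 1.41, 1.74 and 1.73, all close to those of mice 2 and 3 at 42 weeks. Injury levels at 36 weeks were 0.90, 1.64 and 0.83 and acute phase levels 1.36, 2.18 and 1.28. Between the 3 diseased mice at 42 and the 3 at 36 weeks limma called 0 probe sets (0%), with 503 of 7989 at an unadjusted p under 0.05. Without diseased mouse 2 at 42 weeks it called 34. Cp had 417, 1002 and 267 at 36 weeks, and the difference between the ages was 1.07 ± 0.56 log2 units (95% interval -0.13 to 2.26). C1qa had 363, 537 and 645 and a difference of -0.18 ± 0.61 (-1.50 to 1.14), Cubn 613, 417 and 520.4 and -0.28 ± 0.27 (-0.86 to 0.31), and H2-Aa 1410.5, 1043 and 1362 and -0.41 ± 0.24 (-0.92 to 0.10). These intervals include changes of over 1.5-fold either way for some genes, so likeness of the ages is not shown by the lack of calls.

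The 5 named genes with the smallest p values between the ages are given by value, since none passed the adjusted threshold. Sycp1, a protein of meiotic chromosomes, had 18.1, 16.7 and 14.02 at 42 weeks and 36.4, 39.3 and 53.1 at 36 weeks, nearly all below 50 (-1.39 ± 0.26, unadjusted p = 0.000129, adjusted p = 0.324 from limma). Dennd5a, a regulator of vesicle traffic, had 86.7, 72.3 and 129.5 against 161, 195 and 205 (-0.99 ± 0.20, adjusted p = 0.324), with 120.4 to 148 in the asymptomatic mice. Gldc, of glycine breakdown, had 791, 213 and 248 against 124, 62.4 and 93.3, with 228 to 302 in the asymptomatic mice (1.95 ± 0.40, adjusted p = 0.324). In these genes and in those that follow the values of the ages did not overlap, though the genes were chosen by p value. Mfap2, a protein of elastic microfibrils, had 141, 145 and 189 against 284, 277 and 242 (-0.77 ± 0.16, adjusted p = 0.347), and Cxcr5, a chemokine receptor of B cells, 76.5, 74.2 and 90.6 against 21.4, 23.2 and 54.1 (1.42 ± 0.32, adjusted p = 0.449).

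A comparison at equal age is given by the 3 sirolimus-treated mice at 42 weeks. By the study's methods they had received this inhibitor of mTOR for a course that ended earlier, whereas their labels read "on treatment". They differ from the diseased mice by the drug and by the course of disease, and they are given for their age. Of 7989 probe sets 670 (8.39%) were called between diseased and treated mice at 42 weeks, and of the 4190 genes 183 (4.37%) were called higher and 156 (3.72%) lower in the diseased mice. The MHC class II genes had 8 of 10 called higher in the diseased mice, the macrophage markers 7 of 14, early complement 4 of 7, tubular injury 16 of 30 and immediate early genes 13 of 26. The proximal tubule markers had 10 of 14 called lower, and the brush border list 9 of 19 lower and 1 higher. Metabolic lists had smaller counts than against the asymptomatic mice, and so did all genes, with 3.72% called lower here and 9.98% there. Called lower were 4 of 14 branched-chain enzymes, 7 of 20 for tyrosine, glycine, methionine and other amino acids and 4 of 26 of fatty acid oxidation. The TCA cycle had 1 of 17 called lower, the electron transport chain 1 of 47 and sterol synthesis 0 of 8. Median log2 differences, in this order of lists, were -0.76, -0.81, -0.29, -0.52, -0.07 and -0.27. Against the asymptomatic mice they were -1.12, -0.99, -0.42, -0.64, -0.35 and -0.94. Both comparisons use the same 3 diseased mice, so their counts are not independent, and the difference between the treated and the asymptomatic mice was not tested for these lists.

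Single genes differed in where the treated mice lay. C1qa had 27.3, 67.2 and 16.3 in the treated mice at 42 weeks, below the asymptomatic mice, and the diseased mice lay 3.83 ± 0.61 log2 units above them (adjusted p = 0.00393 from limma). Cubn had 910.4, 990.2 and 1078 and Egf 3187, 3819.7 and 4386 in the treated mice, with differences of -1.23 ± 0.27 (adjusted p = 0.0177) and -2.45 ± 0.60 (adjusted p = 0.0267). Cmip, an adaptor of T cell signalling that was among the 12 largest falls, had 531, 462, 368 and 430.1 in the asymptomatic, 97.1, 119 and 95.2 in the diseased and 197, 135 and 175 in the treated mice, all 6 of the older mice lying below the asymptomatic range (-0.69 ± 0.24 between diseased and treated, adjusted p = 0.0876). Lpl, lipoprotein lipase, had 2360.4, 1882, 1809 and 1415, 308, 1002 and 320.0 and 297, 1068 and 764 in the same order of groups. Again all 6 older mice lay below the asymptomatic range (-0.43 ± 0.52 between diseased and treated, adjusted p = 0.623). Between treated and asymptomatic mice limma gave -1.41 ± 0.23 for Cmip (adjusted p = 0.00832). It gave -1.56 ± 0.49 for Lpl (adjusted p = 0.0667) and -1.22 ± 0.57 for C1qa (adjusted p = 0.193). Baiap2, an adaptor of actin, had 24.8 to 33.8 in the asymptomatic, 9.27, 7.27 and 9.14 in the diseased and 11.3, 8.39 and 8.86 in the treated mice at 42 weeks, and 51.9, 31.9 and 16.1 at 36 weeks, all but 1 of these values below 50.

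**Figure D5:**
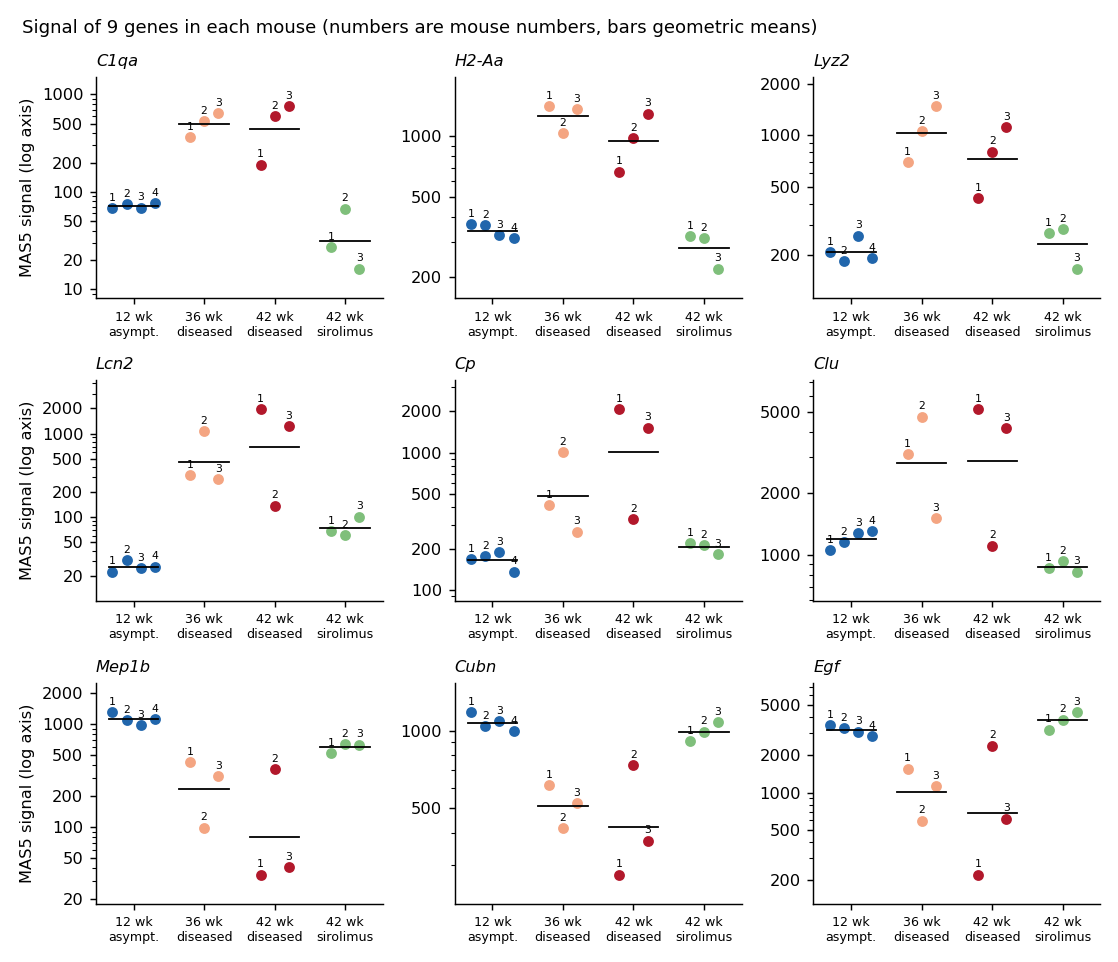
Points are MAS5 signals of single mice on a log axis, with mouse numbers above them and bars at the geometric mean of each group. C1qa, H2-Aa and Lyz2 are lowest in mouse 1 among the 42-week diseased mice, whereas Lcn2, Cp and Clu are lowest and Mep1b, Cubn and Egf highest in mouse 2.

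Markers of tissues next to the kidney or of blood differed between the mice. Of 7 adrenal genes 1 was called, Star, which brings cholesterol into mitochondria for steroid synthesis, with 3.600, 8.395, 8.76 and 5.18 in the asymptomatic and 19.4, 19.3 and 159 in the diseased mice (log2 fold change 2.68 ± 0.62, adjusted p = 0.00755). Hsd3b1 had 23.6, 45.5 and 658 in the diseased mice against 17.8 to 29.2, Cyp11a1 12.6, 17.1 and 122 against 6.77 to 22.97 and Chga, of the adrenal medulla, 7.39, 14.4 and 75.5 against 3.89 to 12.8. In these 4 genes mouse 3 was far above the other 6 mice, and the level of the list was 0.43, 0.76 and 2.82 in mice 1, 2 and 3 and -0.10 to 0.08 in the asymptomatic mice. Nr5a1 and Th had 118, 114 and 111 and 47.9, 47.2 and 74.5 in the diseased mice. The adrenal level was also above the asymptomatic range at 36 weeks (0.62, 0.13 and 0.63) and in the sirolimus-treated mice (1.12, 0.57 and 0.64). The part of these markers in the rises of mouse 3 was not tested. Without mouse 3, 4 B and plasma cell markers, 5 macrophage markers, 3 early complement, 5 JAK-STAT and 0 complement regulator genes were called higher, besides the counts given above. The red blood cell level was -1.34, 0.39 and 0.31, the adipocyte level -1.40, -0.07 and -0.82 and the skeletal muscle level 0.18, -0.09 and -0.76, with 0 higher and 1 lower among the muscle markers, the 1 being Pvalb, which the distal tubule also makes.

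Plasma proteins of the liver differed among the asymptomatic mice, and except for Alb and Apoa2 they were chosen with their values in view. Alb, albumin, had 559.9, 226, 91.4 and 1585 in asymptomatic mice 1 to 4 and 41.6, 74.3 and 35.04 in the diseased mice (log2 fold change -2.95 ± 0.75, adjusted p = 0.012). Apoa2 had 187, 89.4, 66.1 and 245 against 57.8, 49.9 and 41.01 (log2 fold change -1.39 ± 0.38, adjusted p = 0.0183), and Serpina1a 210.5, 110.3, 116 and 366 against 68.9, 87.4 and 97.8 (log2 fold change -1.08 ± 0.35, adjusted p = 0.0383). Ahsg had 79.5, 33.3, 17.1 and 155 against 19.9, 38.6 and 10.04 and was not called (-1.38). Asymptomatic mice 4 and 1 were highest in all 4 genes, with mice 2 and 3 nearer to the diseased mice, and the part of this spread in the falls was not tested.

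The renin gene Ren2, whose probe set may also read its near-identical copy Ren1, and Dnase1, a nuclease that degrades DNA, are named through the study's own gene list and were looked at after their values were seen. Ren2 had 288, 446, 423 and 561 in the asymptomatic and 6.02, 120.1 and 33.3 in the diseased mice (log2 fold change -3.85 ± 0.73, adjusted p = 0.00258), with mouse 1 at the background. A probe set of Dnase1 had 1144, 1019, 900.1 and 754 against 24.02, 308 and 23.9 (log2 fold change -4.07 ± 0.79, adjusted p = 0.00297), and mouse 2 again kept the highest signal. A brighter one had 3234, 3958, 3816 and 4265 against 123, 1401 and 142 (log2 fold change -3.71 ± 0.75, adjusted p = 0.00355), again highest in mouse 2. The probe set that the annotation names Dnase1 had 51.1, 74.6, 87.3 and 75.2 against 20.7, 64.1 and 31.8 and was not called (-1.02), so the probe sets of this gene differ in size of change.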

How the data were processed

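RNA from the kidneys of single mice was labelled with biotin and hybridised to Mu11KsubA and Mu11KsubB arrays. The authors deposited 1 linear MAS5 intensity for each probe set and array, computed by Affymetrix software and scaled array by array. No read depth stands behind such values, so precision rests on how many mice there were. At least 39.9% of the probe sets of each array reached a signal of 50.

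Here the values of both arrays were stacked per mouse and taken to log2. Control probe sets (122) and probe sets below 50 in all 16 mice were left out, and present calls were not used. A single limma fit (version 3.58.1, R 4.3.3) held all 16 mice as 5 groups with a common spread per probe set. Errors after ± are its standard errors, and p values were adjusted by Benjamini-Hochberg across the 7989 probe sets. The scripts were tested on simulated data. The probe annotation gave exactly 1 gene for 4952 tested probe sets, several for 163 and none for 2874. Where a gene had more than 1 probe set, that with the highest mean log2 signal in the 7 mice was used. Of 157 called genes with several probe sets, 88 of 185 further probe sets were called the same way and 0 the opposite way. Another 90 probe sets have a name only in the study's gene list and are not counted in the lists.

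The mice, gene lists and tests were chosen with earlier results of these data known. Genes were named by rule. Among called genes without overlap, leaving out immunoglobulin genes, these were the 12 largest rises and falls with both means at least 50. To them came the 8 of each with 1 mean below 50 and the highest mean in the other group. At most 6 called genes from every list, the 5 brightest immunoglobulin probe sets and 5 genes each way between the ages were also named. These needed no such separation. Uncalled members are given as values. Further members named beside a small count, motifs and the single mice were chosen with their values in view. A list level is the mean log2 signal of its tested genes in a mouse minus the asymptomatic mean. Promoters are from RefSeq, with a match for 7 of 10 class II and 14 of 15 class I genes. Alternatives were the methods' analysis of variance, 7 mice only, other filters and scalings, a floor of 50, other probe sets, a replicate block and leaving out each mouse.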

Additional observations from a re-analysis of the deposited data

Results flagged for a closer look

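In 10 of 284 groups of 4 asymptomatic mice examined, 1 mouse stood apart from the other 3 by a gap that was a large share of the whole range on the log2 scale, past Dixon's 95% critical value, where chance alone flags about 1 in 20. The share was 0.937 for Psmb10, an immunoproteasome subunit, with signals of 33.6, 10.6, 31.2 and 32.1, and 0.872 for Cfp, properdin, with 58.6, 41.5, 41.4 and 39.5. It was 0.83 for Lgals3, galectin 3, with 251, 248, 267 and 381, and 0.859 for the B cell kinase Blk, with 42.8, 45.5, 44.9 and 29.5. Rac2, with 151, 149, 165 and 152, had 0.861 and Rrm2, a subunit of ribonucleotide reductase, with 90.1, 60.00, 63.5 and 61.5, 0.86. Hspb8, a small heat shock protein, with 38.5, 39.8, 30.1 and 38.7, had 0.881. Mean levels stood apart for the interferon-stimulated genes (0.847), the macrophage markers (0.884) and the ribosomal proteins (0.956). The distances are small for the macrophage markers, which spanned -0.04 to 0.09 log2 units. No explanation was tested for them.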

How the results depend on the processing

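The 1643 calls against asymptomatic mice became 889 with the analysis of variance and 1408 with a signal minimum of 100. They became 1507 with the 7 mice alone and 1293 with a floor of 50. The 889 is not the study's own count, which came from another filter. Leaving out each mouse gave 1139 (without diseased mouse 3) to 1863 (without diseased mouse 2). Mouse numbers did not pair the mice, since deviations of same-numbered mice correlated at -0.117 to -0.033. With the replicate block 202 probe sets were called against asymptomatic mice and 0 against sirolimus-treated mice. Between the ages, leaving out single mice gave 0 to 34 calls (34 without diseased mouse 2 at 42 weeks, 1 without mouse 3). Against sirolimus-treated mice it gave 121 (without diseased mouse 3) to 1225 (without diseased mouse 2), and 188 without treated mouse 3, 360 without treated mouse 2 and 399 without treated mouse 1. Of 3609 pairs of a named gene and a setting, 2955 kept their direction and call, 654 kept their direction only and 0 reversed. The analysis of variance, the fit on 7 mice and the filters leave the fold change as it was, so no reversal could occur there. Genes with values that do not overlap could also not reverse when a mouse was left out. The lack of reversals is thus no support for the directions. Of 216 named genes, 144 stayed past the thresholds with each of the 7 mice left out, 101 with the analysis of variance and 74 in every setting they were tested in apart from the replicate block. Other probe sets of the same gene had the opposite sign for Ccnd3 (-0.10 on the log2 scale) and Auh (0.16 and 0.41), and the cause was not tested. Signals near or below 50 limit the fold changes of genes that start or end there.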

Other observations

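Some gene lists not described above held called genes, beside 9.19% higher and 9.98% lower among all genes. Of 23 antioxidant genes 5 were called lower and 2 higher, and of 24 heat shock and chaperone genes 4 (16.7%) were called lower and 3 (12.5%) higher, the latter list near the shares of all genes. The mitochondrial chaperone Hspd1 had 1453, 1440.4, 1425 and 1306 in the asymptomatic and 506, 787 and 489 in the diseased mice (log2 fold change -1.28 ± 0.18, adjusted p = 0.000507), while the small heat shock protein Hspb1 had 233, 246, 321 and 264 against 1317, 369 and 1115 (log2 fold change 1.63 ± 0.40, adjusted p = 0.0105). Hspd1 lay below the asymptomatic range in all 3 diseased mice, and Hspb1 was raised most in mice 1 and 3. Of 32 drug-metabolising genes 6 were lower and 1 higher, with Cyp2d26 at 1469, 1378, 1549 and 1518 against 228, 895 and 382 (log2 fold change -1.79 ± 0.40, adjusted p = 0.00642), though its probe set may read other genes of the Cyp2d family. Of 32 lysosomal genes 5 were higher and 1 lower. Ctsc, cathepsin C, had 99.6, 95.9, 117 and 102 against 314, 246 and 389 (log2 fold change 1.59 ± 0.17, adjusted p = 0.000254), and the sialidase Neu1 544, 602, 522 and 625 against 299, 304 and 263 (log2 fold change -0.99 ± 0.13, adjusted p = 0.000436), each with 3 diseased mice on the same side. Of 18 genes of cell death 3 (16.7%) were lower and 2 (11.1%) higher, near those shares, the lower ones including Cflar, an inhibitor of death receptor signalling, with 108, 91.2, 85.98 and 74.6 against 26.5, 42.1 and 36.4 (log2 fold change -1.37 ± 0.19, adjusted p = 0.000494).

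Of 22 genes of the mTOR pathway, the target of sirolimus, 3 were called higher and 1 lower in the diseased mice, near the share of all genes. Ddit4, an inhibitor of mTOR that stress induces, had 158, 139.8, 129.8 and 115 in the asymptomatic and 377, 222 and 300.4 in the diseased mice (log2 fold change 1.12 ± 0.22, adjusted p = 0.0032). Fkbp5 had 63.02, 57.8, 74.4 and 43.8 against 373, 140.0 and 171 (log2 fold change 1.82 ± 0.30, adjusted p = 0.00127), with mouse 1 the highest in both genes, and Eif4ebp1, a substrate of mTOR that holds back translation, 166, 146, 154 and 182 against 309, 221 and 259.6 (log2 fold change 0.69 ± 0.20, adjusted p = 0.0228).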
